A study of Bos taurus with 9 samples.

Results

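The regions described here are 1892 wide peaks of H3K27ac, acetylation of histone H3 at lysine 27, in rumen epithelial tissue of Holstein calves before weaning. They were chosen by their measured positions alone. A peak of the H3K27ac list before weaning was taken as a member if it was 1000 bp or wider and shared no base with a peak of H3K9ac (acetylation of histone H3 at lysine 9) or of RNA polymerase II (RNA pol II) at the same time point. The list held 74249 peaks, of which 5526 reached 1000 bp. Among these, 3528 touched an H3K9ac peak, 106 touched an RNA pol II peak and no H3K9ac peak, and the remaining 1892, or 34.2% of the wide peaks and 2.55% of the whole list, were members. Width and the lack of both other peaks are therefore properties of the selection and not results.

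Histone acetylation loosens the contact between DNA and nucleosomes and is laid down by acetyltransferases at promoters and enhancers in use. H3K27ac marks both kinds of element, whereas H3K9ac is usually strongest around the transcription start sites of active genes, where RNA pol II is also loaded. Regions with H3K27ac and neither H3K9ac nor RNA pol II are sometimes read as enhancers. The study, however, treats H3K9ac as well as H3K27ac as a mark of both promoters and enhancers. The lack of H3K9ac and RNA pol II does not by itself make a region an enhancer, and members are not called enhancers here. Wide or closely spaced H3K27ac regions are often found near genes that give a cell type its identity. The rumen is the first chamber of the ruminant stomach, and its epithelium takes up the fatty acids made by fermentation, an activity that grows as a calf turns from milk to solid feed at weaning. Butyrate, one of these fatty acids, inhibits histone deacetylases.

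Chromatin immunoprecipitation followed by sequencing had been run on tissue before weaning and after weaning for H3K9ac, H3K27ac, RNA pol II and H3K9me3 (trimethylation of lysine 9, a mark of silent chromatin), with 1 library per target and time point and 1 input library of rumen tissue in common. The breed and the tissue were the same in all groups, and no genotype or drug treatment is given. The age of the calves and the number of calves behind a library are not given in the sources used here. Both H3K27ac libraries were run on lane 2, as were both RNA pol II libraries, and both H3K9ac libraries on lane 1. For H3K9me3 the library before weaning was on lane 2 and that after weaning on lane 1, so that the effects of the lane and of weaning on H3K9me3 cannot be told apart. With 1 library per group there was no replicate error, no difference between the time points was tested, and weaning, animal, sequencing depth and antibody enrichment cannot be told apart. The whole H3K27ac list was shorter and narrower after weaning, with 30446 peaks of a median 290 bp against 343 bp, and 382 peaks of 1000 bp or more against 5526. The confidence intervals printed below are 95% Wilson intervals for shares of peaks. They hold only the error of counting, and peaks that lie side by side may not be independent of each other.

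Most members lay close to the lower limit of width. The lowest width was 1000 bp, the median 1188.5 bp, the upper quartile 1380.25 bp and the highest 3224 bp. The wide H3K27ac peaks that touched H3K9ac were wider, with a median of 1361 bp and a highest value of 6135 bp. Members made up 6.94% of all bases under H3K27ac peaks before weaning, 2.42 Mb in sum. At the limit itself, 69 members were 1000 to 1009 bp wide, and 79 peaks without H3K9ac and RNA pol II were just outside at 990 to 999 bp. Of the first, 41 (59.4%) touched H3K27ac after weaning, and of the second 44 (55.7%), so the values on both sides of the limit were close.

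After weaning, 1215 of the 1892 members touched a peak of the H3K27ac list, which is 64.2% (62.03 to 66.3). Over all H3K27ac peaks before weaning the share was 27.9%, and over all those of 1000 bp or more it was 79.6%. Members thus stood above the whole list and below all wide peaks together. The wide peaks with H3K9ac touched H3K27ac after weaning in 87.9% of cases (86.7 to 88.9), and the 106 with RNA pol II alone in 76.4% (67.5 to 83.5). Of the 60494 peaks under 1000 bp without H3K9ac and RNA pol II the share was 19.4% (19.1 to 19.7).

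A wide peak offers more bases to be touched than a narrow one, so the shares were set side by side within ranges of width. Without H3K9ac and RNA pol II, the share that touched H3K27ac after weaning was 11.0% for peaks of 200 to under 300 bp, 20.7% from 300 to under 500 bp and 38.3% from 500 to under 1000 bp. Members continued this order, with 61.8% (59.3 to 64.1) of the 1574 from 1000 to under 1500 bp, 73.8% (68.2 to 78.8) of the 260 from 1500 to under 2000 bp, and 87.9% (77.1 to 94.03) of the 58 of 2000 bp or more. Wider members were thus more often touched. At equal width the peaks with H3K9ac were higher, with 85.4% (83.9 to 86.8), 90.6% (88.5 to 92.4) and 94.3% (91.8 to 96.1) in the same 3 ranges. The intervals of members and of peaks with H3K9ac did not overlap in the lower 2 ranges and overlapped in the widest one. Wide peaks with RNA pol II alone were few, at 77.1% (66.05 to 85.4) of 70, 68.0% (48.4 to 82.8) of 25 and 90.9% (62.3 to 98.4) of 11, so that they stood above members in the lowest and highest range and below them in the middle one, with intervals that overlapped only in the middle and highest range.

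**Figure D1:**
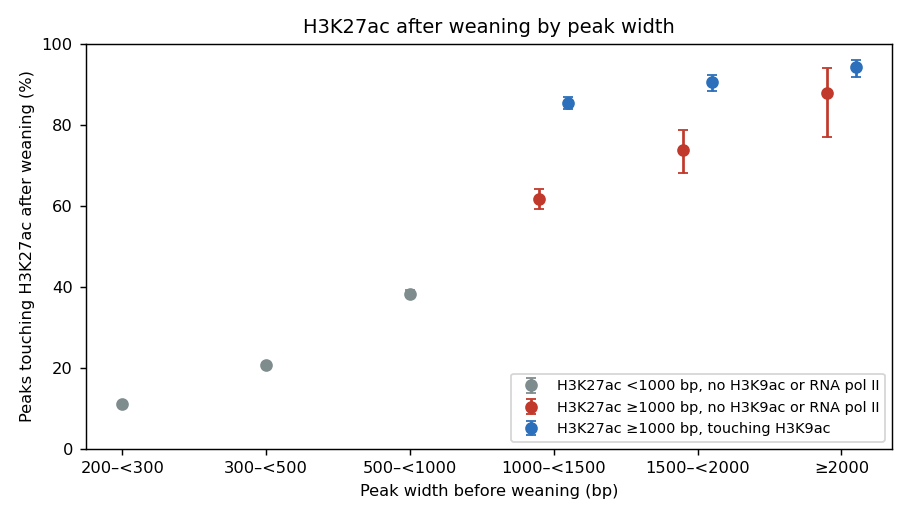
Share of H3K27ac peaks before weaning (vertical axis, %) that touched an H3K27ac peak after weaning, by peak width (horizontal axis, bp). Points are shares within one library and bars 95% Wilson intervals; members (red) lie between 61.8% and 87.9%, under the peaks with H3K9ac (blue) of the same width, whose shares lie between 85.4% and 94.3%.

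Touching did not mean that a member was covered as before. Of the 2.42 Mb of members, 0.665 Mb (27.5%) lay under H3K27ac peaks after weaning, compared with 43.5% of the bases of wide peaks with H3K9ac and 14.9% of those of narrower peaks without H3K9ac and RNA pol II. In a member that was touched, a median of 38.8% of its length was covered (quartiles 24.02% and 56.0%). At least 50% of the length was covered in 397 members, 21.0% of all members (19.2 to 22.9), against 17.7% over all H3K27ac peaks before weaning. The interval of members did not include the share of the whole list, whose peaks were mostly narrower, and the share was 13.7% (13.4 to 14.0) for the narrower peaks without H3K9ac and RNA pol II, 41.4% (39.7 to 43.0) for wide peaks with H3K9ac and 19.8% (13.3 to 28.4) for those with RNA pol II alone. The full length was covered in 5 members, and in 322 of the touched members (26.5%) less than 25% was. These 2 counts were not made for other classes. Where touched, the median share of length covered was 48.5% in wide peaks with H3K9ac. It was 36.3% in those with RNA pol II alone and 66.5% in narrower peaks without H3K9ac and RNA pol II.

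The remaining H3K27ac lay mostly in small pieces inside the old outline. One peak after weaning touched 785 members, and 2 peaks touched 371, 3 touched 52, 4 touched 5, and 5 touched 2 members. More than 1 piece was thus present in 430 of the 1215 touched members, or 35.4% (32.8 to 38.1), while among touched wide peaks with H3K9ac it was 46.9% (45.2 to 48.7). In all, 1713 peaks after weaning lay on members, and 1551 of them (90.5%) were wholly inside one. Their median width was 325 bp (quartiles 241 and 481 bp), against 290 bp for the whole list after weaning. Only 7 members met a peak after weaning that was wider than the member. Members are 1000 bp or wider by the rule, and 1.25% of the H3K27ac peaks after weaning reached that width. The counts of peaks wholly inside and of wider peaks were not made for other wide peaks, so they are not results about members. Along the length of touched members, coverage was lowest at the ends and highest in the middle. The point at 5% of the length was covered in 23.6% of touched members and the point at 95% in 25.7%, against 50.8% at the points 45% and 55% along.

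**Figure D2:**
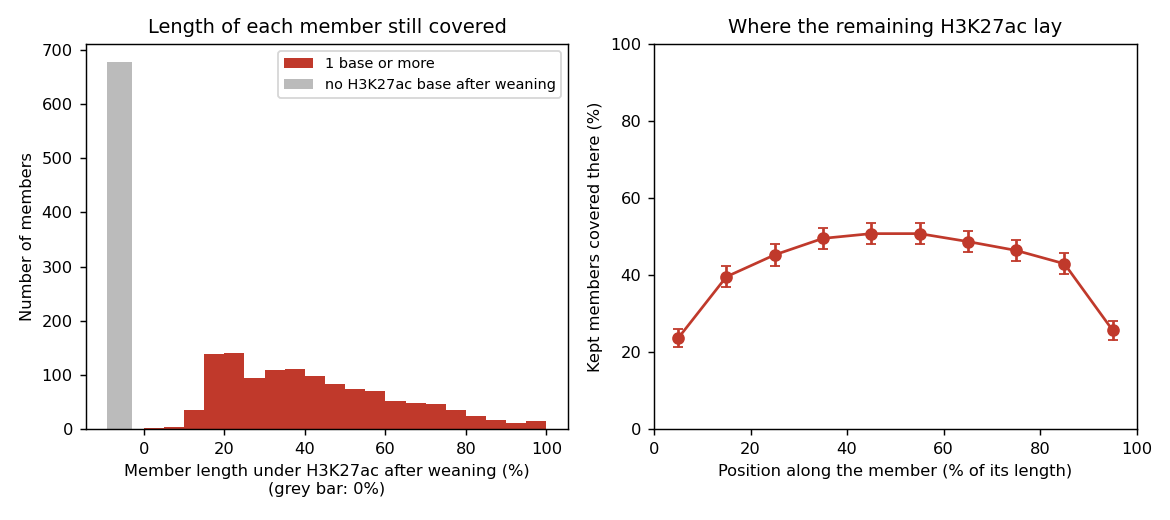
Left, number of members (vertical axis) by the percent of their length under H3K27ac peaks after weaning (horizontal axis), with the 677 members at 0% as a grey bar. Right, percent of the 1215 touched members covered at 10 points along their length, with 95% Wilson intervals; coverage goes from 23.6% near one end to 50.8% in the middle.

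Few H3K27ac peaks of any class touched a peak that met the same rule after weaning. The same rule applied to the 3 lists after weaning gave 273 peaks out of 382 wide ones (71.5%). A member was touched by such a peak in 37 cases, 1.96% of all members (1.42 to 2.68). The share was 0.450% (0.404 to 0.501) over all H3K27ac peaks before weaning and 4.88% (4.21 to 5.64) for the wide peaks with H3K9ac. Of the 273 peaks, 37 (13.6%) touched a member, 173 (63.4%) touched a wide H3K27ac peak that had carried H3K9ac before weaning, and 1 touched no H3K27ac peak before weaning. The H3K9ac list itself was shorter after weaning, with 2127 peaks against 14384, and the part of this in the counts was not tested.

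The 10 widest members give the range of outcomes. Positions are on the cattle assembly UMD3.1. The widest, at chromosome 21, positions 42196323 to 42199546 (3224 bp), carried 5 separate H3K27ac peaks after weaning, which covered 1807 bp of it (56.0%), the widest of them 576 bp. It stood apart from other acetylation, with the nearest H3K9ac peak before weaning 86486 bp away and the nearest other H3K27ac peak 11485 bp away. The second, at chromosome 18, positions 54253407 to 54256449 (3043 bp), lay 429 bp from an H3K9ac peak and 848 bp from an RNA pol II peak, and 3 peaks covered 981 bp of it (32.2%) after weaning.

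Chromosome 13 held the next 3, which differed in their state after weaning. At positions 74425484 to 74428431 (2948 bp) 647 bp (21.9%) were covered by 2 peaks. At positions 76595935 to 76598714 (2780 bp) 1732 bp (62.3%) were covered, with one peak of 1483 bp. At positions 60542870 to 60545630 (2761 bp) no base was covered, and the nearest H3K27ac peak after weaning was 87998 bp away, although an H3K9ac peak had been present 417 bp from it before weaning. These members of nearly equal width thus ranged from no coverage to 62.3%.

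The other 5 of the 10 widest were all touched after weaning, mostly over a small part. A member at chromosome 9, positions 78070627 to 78073360 (2734 bp), had 1243 bp covered (45.5%). One at chromosome 18, positions 62015100 to 62017774 (2675 bp), had 867 bp (32.4%). One at chromosome 17, positions 55253769 to 55256390 (2622 bp), had 505 bp (19.3%). For the member at chromosome 3, positions 9878879 to 9881634 (2756 bp), a single peak of 375 bp remained (13.6%), and for that at chromosome 28, positions 28525807 to 28528484 (2678 bp), a single peak of 259 bp (9.67%). Of the 10 widest, 9 were therefore touched, and 2 were covered over more than 50% of their length.

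The members with the most bases covered after weaning were not all among the widest. The highest, at chromosome 28, positions 34904139 to 34906575 (2437 bp), had 1824 bp under 4 peaks (74.8%). At chromosome 14, positions 21578838 to 21580905 (2068 bp), 1761 bp were covered by 2 peaks (85.2%), 186428 bp from the nearest H3K9ac peak before weaning. A member at chromosome 9, positions 63621179 to 63623464 (2286 bp), had 1747 bp under 3 peaks (76.4%) and carried 234 bp of H3K9ac after weaning. The other 2 of the top 5 were the widest member on chromosome 21 and the member of 2780 bp on chromosome 13 described above. None of these 5 was covered in full.

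Among the 677 members without H3K27ac after weaning (35.8%), the median width was 1157 bp, against 1210 bp in those that were touched. The widest was the 2761 bp member on chromosome 13. Next came those at chromosome 16, positions 73477707 to 73480245 (2539 bp), chromosome 6, positions 26571484 to 26573756 (2273 bp), chromosome 11, positions 95318216 to 95320361 (2146 bp), and chromosome 7, positions 53099708 to 53101850 (2143 bp). Their surroundings after weaning differed widely. The nearest H3K27ac peak was 558 bp from the member on chromosome 11, 7820 bp from that on chromosome 7, 13670 bp from that on chromosome 16 and 125785 bp from that on chromosome 6. Of all 677, 147 (21.7%) had an H3K27ac peak after weaning within 1 kb and 333 (49.2%) within 10 kb.

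H3K9ac, absent from members before weaning by the rule, was found on 72 of them after weaning, or 3.81% (3.03 to 4.77). The share was 2.01% over all H3K27ac peaks before weaning, 0.818% (0.750 to 0.893) of the narrower peaks without H3K9ac and RNA pol II, and 13.1% (11.99 to 14.2) of the wide peaks that had H3K9ac before. Width differs between these groups, and it was not separated from the mark here. H3K9ac covered a median of 251 bp of these members, and at most 615 bp. The widest H3K9ac peak on each had a median of 252 bp, close to the 244 bp of the whole H3K9ac list after weaning. Of the 72 members, 66 (91.7%) also touched H3K27ac after weaning. Put the other way, 5.43% of the touched members (4.29 to 6.85) and 0.886% of the untouched ones (0.407 to 1.92) had H3K9ac, and these intervals did not overlap. This was not particular to members. Among the narrower peaks without H3K9ac and RNA pol II, 2.80% (2.51 to 3.11) of the touched ones had H3K9ac, against 0.818% of all. Among the wide peaks with H3K9ac before, it was 14.6% (13.4 to 15.9) of the touched ones, against 13.1% of all. The like pair for members is 5.43% of the touched ones against 3.81% of all. Touched peaks are part of all peaks, and made up 87.9% of the wide peaks with H3K9ac. These pairs are therefore closer than touched and untouched peaks would be, and the size of the contrast was not compared between classes.

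The 3 members with the most H3K9ac after weaning had H3K27ac over most of their length. At chromosome 15, positions 75520298 to 75521413 (1116 bp), H3K9ac covered 615 bp and H3K27ac 1058 bp. At chromosome 10, positions 85612021 to 85613218 (1198 bp), H3K9ac covered 581 bp and H3K27ac the full length. At chromosome 7, positions 63115365 to 63116712 (1348 bp), the values were 499 bp and 965 bp. These 3 were chosen after their values were seen. The 6 members with H3K9ac and no H3K27ac after weaning were on chromosomes 5, 10, 13, 17 and 18, with 2 on chromosome 17, and 4 of them carried an H3K9ac peak that covered 200 bp, the lowest peak width in the lists.

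H3K9me3 was nearly absent from members, and the count for RNA pol II depended on which list was read as after weaning. With the lists as labelled, no member touched RNA pol II after weaning, against 0.0768% over all H3K27ac peaks before weaning, in a list of 738 peaks. A count of 0 of 1892 allows a share of up to 0.159% by the limit of 3 counts, and its Wilson interval reaches 0.203%. It cannot be told from the share of the whole list. Of the 60494 narrower peaks without H3K9ac and RNA pol II before weaning, 1 (0.00165%) touched RNA pol II after weaning. The study's text and the labels can be read in opposite ways on which RNA pol II list came from which time point. The labels were followed here. With both lists exchanged, 1997 peaks met the rule, of which 64.8% touched H3K27ac after weaning. The RNA pol II list then read as after weaning touched 5.26% of them and 2.07% of all H3K27ac peaks before weaning. All peaks in this 5.26% belong to the 106 wide peaks with RNA pol II alone, which the rule left out with the lists as labelled. The 5.26% is therefore not a result about the members described here. The count of 0 for RNA pol II on members after weaning therefore rests on the labels. H3K9me3 touched 1 member before weaning (0.0529%, against 0.0741% over all H3K27ac peaks), at chromosome 7, positions 47706938 to 47707979. After weaning it touched 2 members (0.106%, against 0.106% over all H3K27ac peaks). One lay at chromosome 8, positions 62939347 to 62940527. The other, at chromosome 15, positions 15330990 to 15332355, also carried 364 bp of H3K27ac and 204 bp of H3K9ac after weaning. The H3K9me3 shares were at the level of the whole list or too low to be told from it.

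Being without H3K9ac did not mean being far from it. The gap to the nearest H3K9ac peak before weaning was between 9 bp and 8086 kb, with a median of 9.50 kb and quartiles of 1.33 and 44.7 kb. Within 1 kb of such a peak lay 400 members (21.1%), and within 10 kb 973 (51.4%). Of the narrower peaks without H3K9ac and RNA pol II, 13.5% lay within 1 kb and 39.7% within 10 kb. RNA pol II was farther away, with a median gap of 243 kb and 178 members (9.41%) within 10 kb. Its list before weaning was also shorter, with 2056 peaks against 14384 of H3K9ac, and gaps depend on the length of a list. A wide H3K27ac peak with H3K9ac lay within 10 kb of 436 members (23.04%). The shares near RNA pol II and near these wide peaks were not computed over all H3K27ac peaks, so they are not results about members. The shares near H3K9ac were set only beside the narrower peaks, and not over all H3K27ac peaks. A peak that was not called does not show that the mark was absent. Gene positions on this assembly were not used here, so members were not sorted into promoters, introns and intergenic regions.

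The state after weaning differed little with the distance from H3K9ac. H3K27ac after weaning was found on 66.0% (61.2 to 70.5) of members under 1 kb from H3K9ac, 62.5% (58.4 to 66.3) from 1 to under 10 kb, 63.6% (59.8 to 67.2) from 10 to under 100 kb and 66.9% (61.03 to 72.3) of the 263 at 100 kb or more. All 4 intervals overlapped, and the median widths in the 4 ranges were between 1170 and 1216.5 bp. H3K9ac after weaning was likewise found on 3.75%, 4.01%, 3.66% and 3.80% of members in the 4 ranges. Among the narrower peaks without H3K9ac and RNA pol II, those under 1 kb from H3K9ac touched H3K27ac after weaning in 23.3% of cases (22.4 to 24.2) and those at 100 kb or more in 17.3% (16.7 to 18.0), and the nearer peaks were also wider, with a median of 344 bp against 293 bp.

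**Figure D3:**
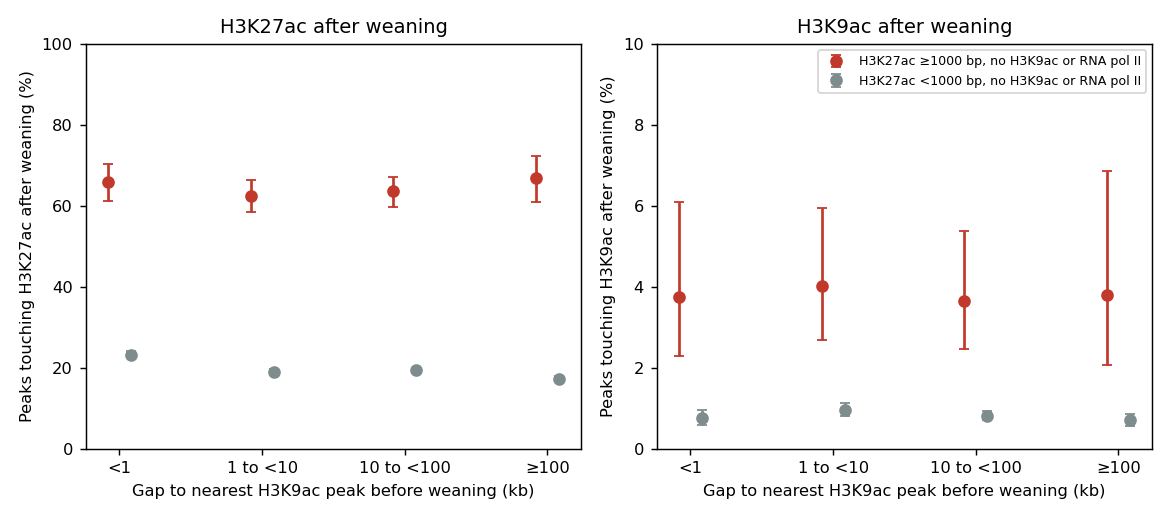
Share of peaks (vertical axes, %) that touched H3K27ac (left) or H3K9ac (right) after weaning, by the gap to the nearest H3K9ac peak before weaning (horizontal axis, kb), with 95% Wilson intervals. Members (red) lie between 62.5% and 66.9% on the left and between 3.66% and 4.01% on the right, with overlapping intervals at all distances.

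Most members had H3K27ac peaks close by, as had H3K27ac peaks in general. Another H3K27ac peak before weaning lay within 10 kb of 1747 members, or 92.3% (91.05 to 93.5), and within 1 kb of 1472 (77.8%). The share within 10 kb was 88.7% over all H3K27ac peaks, 89.8% for wide peaks with H3K9ac and 88.0% for the narrower peaks without H3K9ac and RNA pol II. When all H3K27ac peaks before weaning with gaps of up to 1 kb were joined into stretches, 1795 of the 41828 stretches held a member. Such a stretch had a median of 2 H3K27ac peaks and a median span of 2410 bp (quartiles 1627 and 3645 bp), and 420 (23.4%) consisted of the member alone. An H3K9ac peak was part of 540 of them (30.1%), a share that was not computed over all stretches. Stretches with both a member and H3K9ac touched H3K27ac after weaning in 85.9% of cases (82.7 to 88.6), and those without H3K9ac and RNA pol II in 69.4% (66.8 to 71.9). Span and number of peaks were not compared between these groups, so the mark is not separated from the length of a stretch. Over all stretches, which were shorter, with a median span of 592 bp and a median of 1 peak, the share was 35.4% (35.0 to 35.9). Of the 677 members without H3K27ac after weaning, 204 (30.1%) belonged to a stretch that was touched elsewhere.

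Members were also measured against each other. Distances within a class depend on its size, so they are not comparable with those to all H3K27ac peaks. The nearest other member was a median of 149 kb away, with quartiles of 32.9 and 530 kb. A gap of at most 10 kb to another member was found for 309 members, or 16.3% (14.7 to 18.1), and of at most 1 kb for 122 (6.45%). For the 3528 wide peaks with H3K9ac, a more numerous class, the nearest of their own kind was a median of 58.2 kb away and 26.9% (25.4 to 28.4) had one within 10 kb. Members linked by gaps of up to 10 kb formed 133 chains of 2, 13 chains of 3 and 1 chain of 4, with a median span of 5709 bp, and 1583 members were single. Of the 147 chains, 58 (39.5%) also had a wide H3K27ac peak with H3K9ac within 10 kb. Chained members were slightly wider than single ones, with medians of 1239 and 1177 bp. They touched H3K27ac after weaning in 60.5% of cases (55.0 to 65.8) and single members in 64.9% (62.6 to 67.3), with overlapping intervals.

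The state of neighbouring members was counted in pairs. Among the 162 pairs of neighbours within 10 kb, both were touched by H3K27ac after weaning in 73 (45.1%), neither in 37 (22.8%) and one of them in 52 (32.1%). Whether neighbours shared their state more or less often than other members was not tested. The chain of 4, at chromosome 21, positions 34275315 to 34288120, spanned 12806 bp. Its members were 1005, 2436, 1311 and 1425 bp wide, and 0, 951, 209 and 0 bp of them were covered after weaning. No H3K9ac peak before weaning lay within 2 kb of the chain, and the nearest was 43224 bp from its first member. It was also the stretch with the most members, with 11 H3K27ac peaks before weaning and 3 after.

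The 4 chains of 3 members with the most member bases had different surroundings. At chromosome 28, positions 28512443 to 28528484, 5 H3K9ac peaks before weaning lay between the members, which were 2060, 1380 and 2678 bp wide and had 758, 0 and 259 bp covered after weaning. At chromosome 11, positions 25581983 to 25589483, all 3 members were touched, with 1255 of 2144 bp, 508 of 1566 bp and 917 of 1519 bp covered, and an RNA pol II peak before weaning lay 80 bp from the last. At chromosome 25, positions 42288383 to 42294958, the middle member of 1862 bp had 338 bp covered and its neighbours of 1159 and 1703 bp had none. At chromosome 19, positions 56073799 to 56084320, the outer members of 1815 and 1835 bp had 461 and 244 bp covered, and the middle one of 1054 bp had none. Of these 5 chains, 1 was touched in all of its members and 4 in a part.

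**Figure D4:**
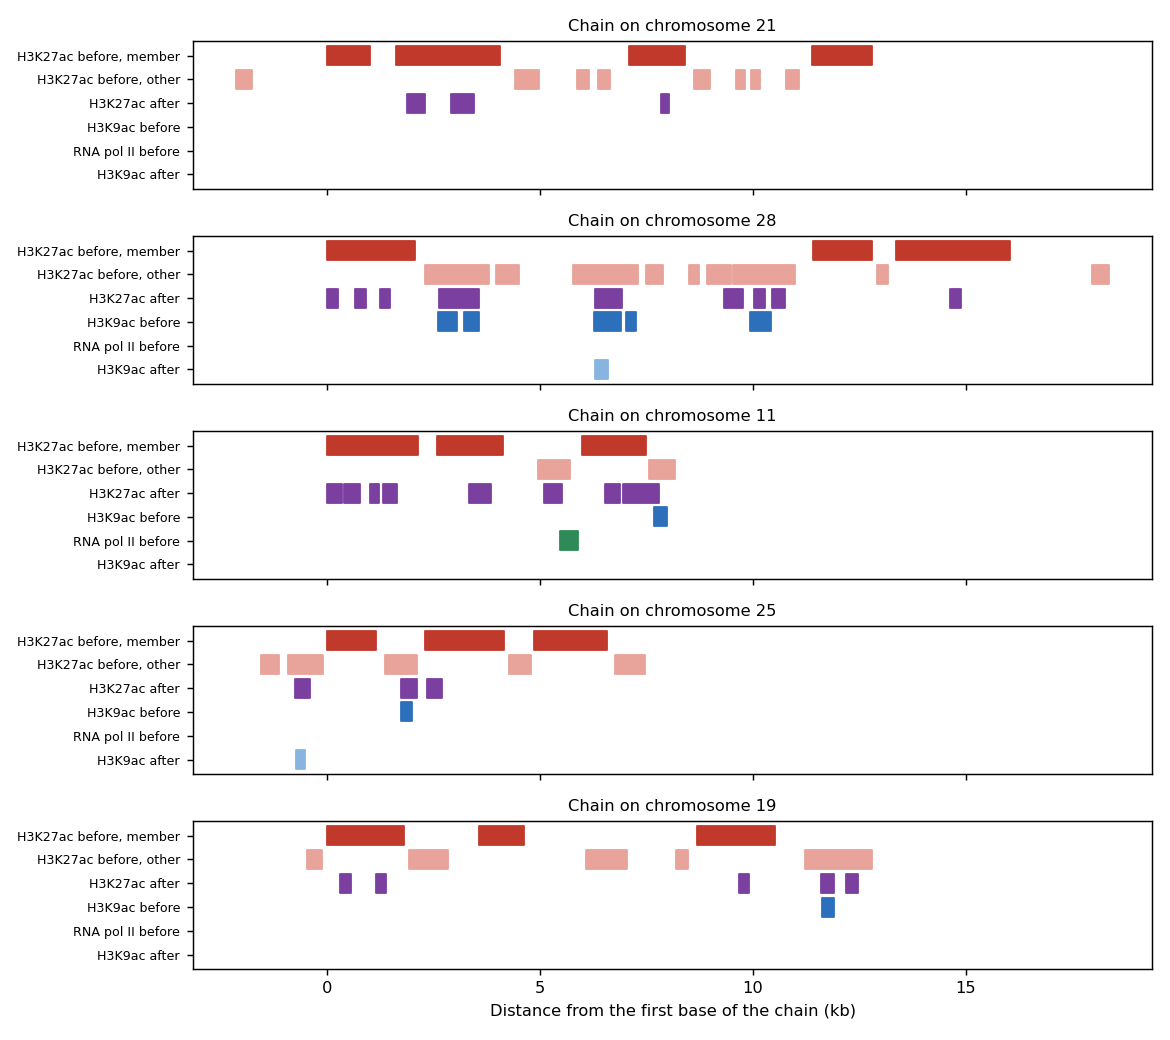
Peaks in and within 2 kb of the 5 chains of members with the most members and member bases, by distance from the first base of the chain (horizontal axis, kb), with 1 row for each kind of peak. The H3K27ac peaks after weaning are shorter than the members above them, and on chromosomes 21, 28, 25 and 19 at least 1 member has none.

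Members were found on all 30 chromosomes of the lists (1 to 29 and X), at 0.712 per Mb over the summed extent of the chromosomes. The density was highest on chromosome 19 (1.78 per Mb, 114 members), chromosome 25 (1.66 per Mb, 71 members) and chromosome 18 (1.45 per Mb, 96 members), and lowest on X (0.208 per Mb, 31 members) and chromosome 20 (0.319 per Mb, 23 members). H3K27ac peaks in general were also densest on chromosome 19, with 4281 over 64.0 Mb, and sparsest on X, with 1098 over 148.8 Mb. Members made up 2.66% of these peaks on chromosome 19, 3.27% on 25, 2.89% on 18 and 2.82% on X, against 2.55% of the whole list. The low density on X was thus that of the list. Over all chromosomes the share was between 1.55% on chromosome 20 and 3.37% on chromosome 28. The share of members that touched H3K27ac after weaning was above that of all H3K27ac peaks on each of the 30 chromosomes. Members are wider than most peaks of the list by the rule, and the share touched rose with width. All H3K27ac peaks of 1000 bp or more stood at 79.6% over the chromosomes together, above members, and were not counted by chromosome. The share of members was highest on chromosome 25, with 53 of 71 (74.6%, 63.4 to 83.3). It was lowest on chromosome 27, with 6 of 17 (35.3%, 17.3 to 58.7), chromosome 15, with 30 of 68 (44.1%, 32.9 to 55.9), and X, with 14 of 31 (45.2%, 29.2 to 62.2). All H3K27ac peaks together were also lowest on X (16.03%) and chromosome 27 (17.6%).

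**Figure D5:**
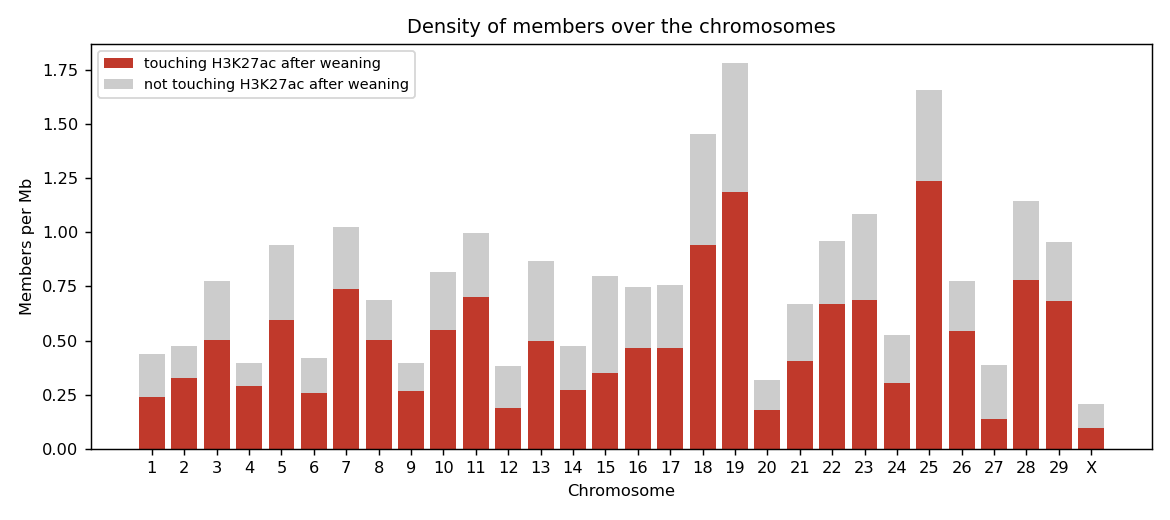
Members per Mb (vertical axis) on each chromosome (horizontal axis), divided into members that touched H3K27ac after weaning (red) and those that did not (grey). Chromosome 19 is highest at 1.78 per Mb and X lowest at 0.208 per Mb. All H3K27ac peaks before weaning, not drawn, were also densest on chromosome 19 and sparsest on X.

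Along the chromosomes, 964 of 2675 bins of 1 Mb held a member (36.04%). The mean was 0.707 members per bin with a variance of 1.70, and 230 bins (8.60%) with 3 or more members held 940 of them (49.7%). The same values were not computed for all H3K27ac peaks. How far the crowding of members follows that of the whole list was therefore not tested, and it is not a result about members. The fullest bin was at chromosome 11, positions 25000001 to 26000000, with 13 members among 234 H3K27ac peaks, of which 11 touched H3K27ac after weaning. It contains the chain of 3 on that chromosome. Bins with 10 members followed at chromosome 7, positions 45000001 to 46000000, where all 10 were touched, at chromosome 19, positions 41000001 to 42000000, where 7 were, and at chromosome 18, positions 53000001 to 54000000, where 5 were. Dense bins thus differed in outcome, from 5 of 10 to 10 of 10.

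The ends of the autosomes held shares of members close to those of all H3K27ac peaks. The first 3 Mb contained 59 (3.17%) and the last 3 Mb 93 (5.00%), against 2.65% and 5.52% of all H3K27ac peaks before weaning. Of these members, 41 of 59 and 58 of 93 touched H3K27ac after weaning.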

How the data were processed

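Peak lists of 8 ChIP-seq libraries (75-nt reads) and the input used by the authors as background were the source. The authors removed reads that failed the filter of the sequencer, aligned the rest with BWA to UMD3.1 (UMD3.1.1 in the methods), kept unique alignments with fewer than 2 mismatches and called peaks with MACS2 at default settings against the input. The labels also list Trim Galore 0.4.1. The deposited values are chromosome, start and end in bp, without height or p-value, so strength and read depth were not analysed here. The precision is limited by the number of peaks.

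Positions were read as 1-based with both ends included. Touching means sharing at least 1 bp. Chromosome extents are the highest peak end over the 8 lists. The named regions were the 10 widest members, the 5 with the most H3K27ac bases after weaning, the 5 widest without any, and the 5 chains with the most members, with ties ordered by summed width. The 3 members with most H3K9ac after weaning, the 6 with H3K9ac alone and those touching H3K9me3 were added after their values were seen. Groups followed the labels. The interval operations were checked on simulated data. Members, ranges and alternatives were chosen with earlier results of these data known. No genome or annotation of UMD3.1 was used, so sequences, motifs and genes planned for the regions are not given. Analyses used Python 3.11.15, pandas 2.3.3 and scipy 1.17.1.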

Additional observations from a re-analysis of the deposited data

How the results depend on the processing

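Of 78 recomputed values, 42 stayed within 1.5 times the main count or within the 95% interval of the main value, and 36 moved. No value has a test. For the percent of bases the interval was computed as if it were a share of the 1892 members. It is not an interval for bases, so whether these values stayed or moved is a rough label. Part of the 42 was fixed in advance. The lists hold only chromosomes 1 to 29 and X, so restriction to these could change no value and was no check. The median gap does not use the linking distance, so it was also bound to stay the same with other links. The RNA pol II share of 0 could not change in 4 settings, each of which keeps a part of the members or asks for more overlap. These were the limit of 1500 bp, 50% coverage, no H3K9ac or RNA pol II within 1 kb, and leaving out members touching H3K9me3. The last setting kept 1889 peaks, so it could hardly move the other shares. With a width limit of 1500 bp, 318 peaks remained, of which 76.4% touched H3K27ac after weaning (29.8% of bases), 5.97% H3K9ac and 0 H3K9me3, with 8.49% within 10 kb of another and a median gap of 1313 kb. With 800 bp there were 4088 peaks, 56.9% touched, 26.7% within 10 kb and a median gap of 51.6 kb. Merging peaks within 1 kb gave 8382 wide peaks without H3K9ac and RNA pol II, of which 45.4% touched H3K27ac (18.01% of bases) and 2.59% H3K9ac, with 26.5% within 10 kb and a median gap of 30.9 kb. Wide peaks with H3K9ac were then touched in 81.3% and narrower peaks in 17.2%.

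When at least 50% of a peak had to be covered, 21.0% of members, 41.4% of wide peaks with H3K9ac and 13.7% of narrower peaks met H3K27ac, and 0.0529% and 0 of members met H3K9ac and H3K9me3. With the lists after weaning extended by 1 kb, the shares were 72.0%, 90.7% and 36.3% for H3K27ac and 5.81% of members for H3K9ac. The order of the 3 classes was the same in these settings and after merging. Leaving out peaks within 1 kb of H3K9ac or RNA pol II gave 14.0% within 10 kb of another and a median gap of 209 kb. Leaving out the 10 fullest bins gave 14.5% and 165 kb. With links of 5 kb and 20 kb, 12.1% and 19.8% had a neighbour. Without members touching H3K9me3 that share was 0 by construction. With the RNA pol II lists exchanged, 5.26% of the peaks that then met the rule touched the list then read as after weaning. All of these were peaks that the main rule left out. No paired analysis was possible because each group holds 1 library. The causes of these shifts were not tested, except that wider peaks are fewer and farther apart by construction.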
